A study of Mus musculus with 12 samples.

Results

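The genes described here are 30 genes that are normally restricted to macrophages and other blood cells, followed in 3T3L-1 (3T3-L1) mouse pre-adipocytes that shared medium with Raw264.7 mouse macrophages. The members were listed by name, from textbook knowledge of the macrophage and with earlier results of these data known. Counts over them are therefore a description. They were matched to array probes through the accession that each probe carries. Of the 30 genes, 29 were matched to 41 of the 39429 probes, and Cd68, the endosomal glycoprotein often used to stain macrophages, had no probe matched through the gene table used. Both channels of all 12 arrays were read, to see which of these genes were higher in co-cultured pre-adipocytes and which gave no signal beyond background on either side of the comparison.

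3T3L-1 is a fibroblast line from mouse embryos whose cells become adipocytes under hormonal induction, and here they were pre-adipocytes. In the co-culture, the macrophages stood in a culture insert with pores of 0.4 µm, so that the cell types shared medium without touching, and the cells of the lower well gave the RNA. Each array compared co-cultured pre-adipocytes (Cy5) with pre-adipocytes grown alone (Cy3), both grown for equal times (6 h, 24 h or 48 h) and given the same treatment. No dye swap was made, so dye and co-culture cannot be told apart in any ratio given here. The treatments were no hormone (NT), serotonin (S), cortisol (C) and cortisol with serotonin (CS), with each hormone at 100 µM, which gave 12 conditions with 1 array each. No array of Raw264.7 RNA was analysed here, so the level of these genes in the macrophages themselves was not measured on this platform. The 4 arrays of a time held different treatments and were not replicates of a condition, so the error in each p-value is what differs among arrays once time and treatment are fitted, and that may be technical.

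Macrophages arise from the blood-forming lineage under the control of PU.1 (the product of Spi1) and survive through the receptor for colony stimulating factor 1 (Csf1r). Their phagocytic and sensing receptors signal through small adaptor chains, of which Fcer1g and Tyrobp carry the activation motif that recruits Syk kinase. Much of the remaining set serves engulfment and killing: lysozymes (Lyz1, Lyz2), the lysosomal protease cathepsin S (Ctss), the pore-forming perforin-2 (Mpeg1), the phagocyte NADPH oxidase (Cybb, Ncf1), complement C1q and the actin regulators of blood cells (Coro1a, Lcp1, Plek, Arhgdib). In tissue RNA such genes are commonly read as a measure of how many macrophages a sample holds. In a bulk sample of this kind, the number of cells of a type and the RNA per cell cannot be told apart.

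Of the 29 genes with a probe, 12 were well above background on all 12 arrays in both channels, that is, also in pre-adipocytes grown alone. These were Aif1, Arhgdib, Cd48, Cd53, Clec4d, Csf1r, Itgam, Itgb2, Lcp1, Lyz1, Mpeg1 and Plek. At the other end, 10 genes were well above background on no more than 2 of 12 arrays in either channel. They were the transcription factor gene Spi1, the pan-leukocyte phosphatase Ptprc (CD45), the lysosomal membrane protein Laptm5, the glycoprotein Cd52, the 3 chains of complement C1q (C1qa, C1qb and C1qc), the scavenger receptor Msr1, the oxidase subunit Ncf1 and the self-ligand receptor Cd84. The share of members at this low level was 34.5%, beside 34.2% of the 20886 genes named on the array, so it was not set apart from the array as a whole.

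The 10 low genes gave the same reading in both channels. On the 4 arrays at 48 h none of the 10 was well above background in either co-cultured cells or cells alone. At 6 h and 24 h at most 2 of the 10 were, in either channel of any array. The log2 ratio of co-culture over alone for their brightest probes lay between -0.545 (Cd52, C at 24 h) and 0.34 (C1qa, NT at 48 h) over the 12 arrays, and the mean at a time lay between -0.21 (C1qb at 24 h) and 0.11 (C1qa at 48 h). These ratios compare signals at background and are no measure of a change in the genes, so none was tested. With the less strict flag of the scanner software (signal positive and significant over background), only 2 members stayed at 2 arrays or fewer in both channels, C1qa and C1qc, beside 12.6% of all named genes. That flag was also raised by 6.75% (Cy3) and 6.97% (Cy5) of readings of the 153 negative control spots, against 1.69% and 1.2% for the stricter one.

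A few members were detected on more arrays in co-cultured cells than in cells alone. Tyrobp was well above background on 6 arrays in co-culture (3 at 6 h, 0 at 24 h and 3 at 48 h) and on 0 arrays in cells alone. Cybb, the catalytic subunit of the phagocyte oxidase, reached 8 arrays in co-culture and 2 in cells alone, but all 8 were at 6 h or 24 h and none at 48 h in either channel. Adgre1, which encodes the classical surface antigen of mouse macrophages, was well above background on 3 arrays in co-culture, all at 24 h, and on 1 array in cells alone. Ctss, Fcer1g and Coro1a reached 12 arrays in co-culture and 10 in cells alone. In all, 8 of 29 members (27.6%) were detected on more arrays in co-culture, beside 13.5% of all named genes, and 2 members (6.9%) led by 3 arrays or more, beside 5.51%. Over the array as a whole, 59.1% to 65.7% of genes were well above background in Cy5 and 56% to 62.1% in Cy3, and the part of this difference between the channels in the counts was not tested.

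**Figure D1:**
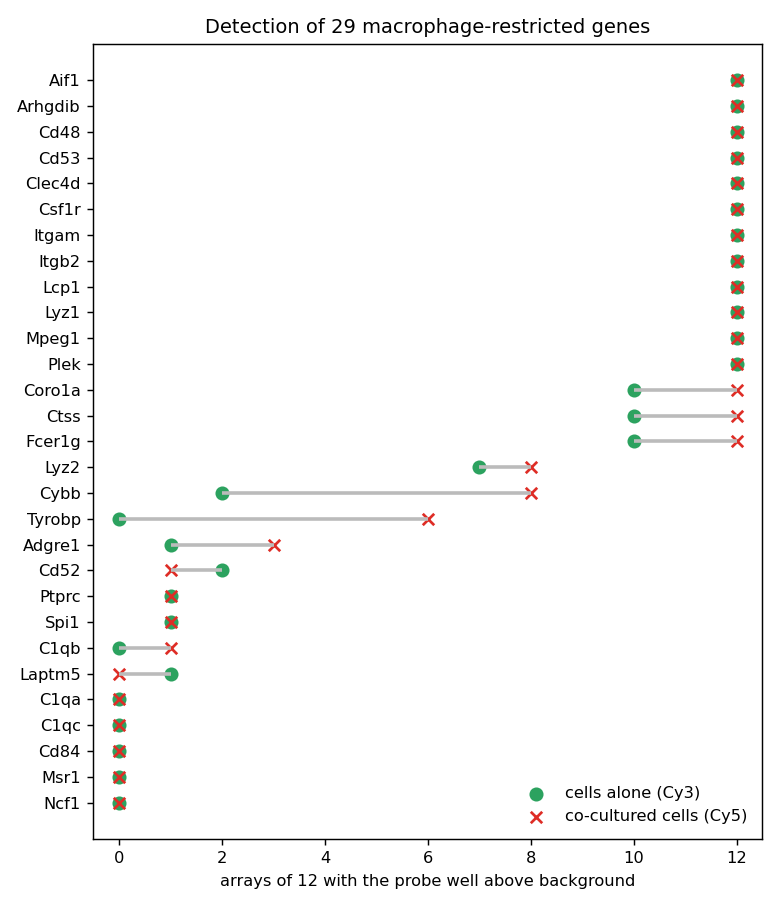
Number of the 12 arrays (x axis) on which the brightest probe of each of 29 genes (y axis) was well above background, in cells alone (green circles) and in co-cultured cells (red crosses), with a grey line joining both counts. 12 genes sit at 12 arrays in both channels, 10 sit at 2 or fewer in both, and Tyrobp (0 and 6) and Cybb (2 and 8) show the widest gaps.

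The arrays were checked against markers of the labelled cells and hormones. All 20 fibroblast and pre-adipocyte genes on a fixed list were above the low level, and 95% of them were detected on all 12 arrays in both channels. Of 20 lymphocyte genes, 65% were at the low level, as were 78.9% of 19 hepatocyte genes, which stand here for cells that the culture did not hold. Of 48 other blood cell genes that are not members, 33.3% were at the low level. Of these 48, 18 (37.5%) were detected on more arrays in co-culture and 4 (8.33%) on more in cells alone, beside 13.5% and 6.95% of all named genes. In co-culture 11 (22.9%) led by 3 arrays or more, and in cells alone 0 did, beside 5.51% and 0.78%. The hormone labels were checked with Zbtb16, a gene induced by glucocorticoids. In co-cultured cells Zbtb16 followed the labels on every array, at 0.94 to 1.40 from its mean on the log2 scale with cortisol and at -1.47 to -0.76 without. Other glucocorticoid-induced genes were less clear there. Tsc22d3 was under its mean on C at 48 h (-0.054). The median of the listed genes was 0.068 and 0.07 on NT and S at 48 h, against 0.064 and -0.04 on C and CS at 6 h. In cells alone Zbtb16 did not follow the labels on 3 arrays. It was above its mean in the libraries labelled S at 6 h (0.58) and S at 24 h (0.47), and under it in the library labelled CS at 24 h (-0.92). Where a member's call changed without these 3 arrays, the value without them is given beside it.

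Ratios were tested for 19 members out of 13837 genes, by limma on all 12 arrays. A gene was called where its two-sided p, adjusted over all genes by Benjamini-Hochberg, was below 0.05 and the ratio had moved 1.5-fold or more. The log2 ratios of the members are given relative to cells alone, with the standard error of the fit. A gene had to be well above background in either channel on 3 or more arrays to be tested, which Tyrobp, Cybb and Adgre1 met only through the co-culture channel, so counts over the tested members are a description. The same filter applied to the other gene lists, so counts over these are a description too.

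At 6 h, 6 of 19 tested members were higher in co-culture and 0 were lower, beside 4.4% of all genes called higher and 5.27% called lower. The 6 include Tyrobp, which was at background in cells alone. Its fold over the dimmest signal well above background was 1.45, below the threshold. Without the fold threshold, 12 members were higher at an unadjusted p under 0.05 and 3 were lower. At 24 h, 3 members were higher and 0 lower, beside 4.68% and 3.7% of all genes, with 7 higher and 2 lower at an unadjusted p under 0.05. At 48 h, 7 members were higher and 2 were lower, beside 14.6% and 16.8%, so the share of members called lower (10.5%) did not exceed that of all genes. The median log2 ratio over the tested members was 0.28, 0.14 and 0.11 at 6, 24 and 48 h, against -0.017, 0.0015 and -0.014 over all genes. In all, 9 members were called higher at some time, 2 were called lower at 48 h, and 8 were called at no time. Centring each array on the median of its probes in place of loess moved the median of all tested genes to 0.23, 0.39 and -0.16 and the shares called higher and lower to 25.1% and 1.67% at 6 h, 33.4% and 0.774% at 24 h, and 11.5% and 26.2% at 48 h. With that centring the members called higher at 48 h were Clec4d, Csf1r, Ctss and Fcer1g, while Aif1 (0.33), Itgam (0.42) and Plek (0.24) were no longer called, and no called member turned direction.

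**Figure D2:**
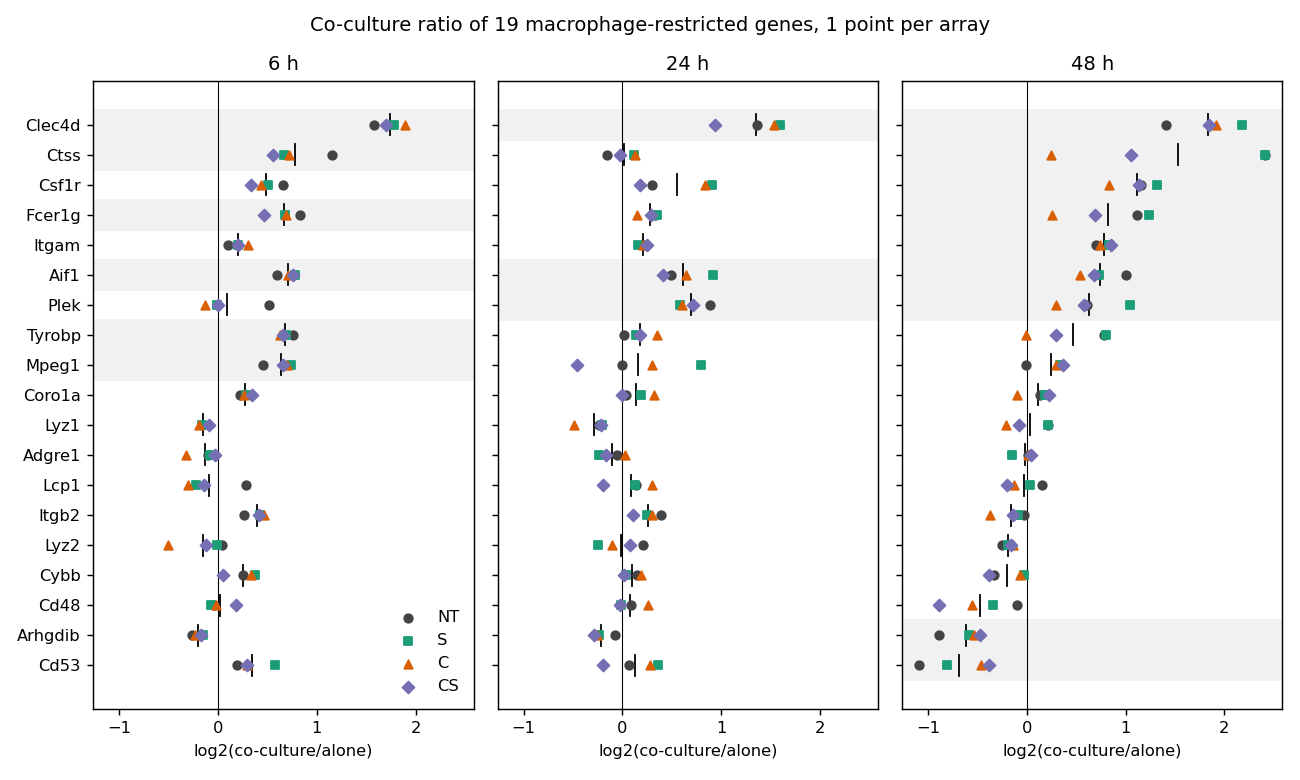
Log2 ratio of co-cultured cells over cells alone (x axis) for the 19 tested genes (y axis, ordered by the fit at 48 h) at 6, 24 and 48 h, with 1 point per array, symbols for the treatments NT, S, C and CS, a black tick at the mean of the 4 arrays and grey bands for called genes. Clec4d and Aif1 are called at all 3 times, and Ctss, Fcer1g and Tyrobp spread widely at 48 h, with the C array lowest.

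Among the receptors, Clec4d had the highest fitted ratio of all tested members at each time. This gene encodes a C-type lectin receptor of myeloid cells that pairs with the Fcer1g chain and binds mycobacterial glycolipid, and it was well above background in cells alone on every array. Its log2 ratio was 1.57, 1.78, 1.90 and 1.70 on the NT, S, C and CS arrays at 6 h, 1.36, 1.59, 1.53 and 0.94 at 24 h, and 1.41, 2.18, 1.91 and 1.85 at 48 h. All 12 arrays were above 0, and no Cy5 level at a time overlapped the Cy3 levels of that time. The fitted log2 ratio was 1.74 ± 0.11 at 6 h (adjusted p = 7.18e-06), 1.36 ± 0.11 at 24 h (adjusted p = 1.17e-05) and 1.84 ± 0.11 at 48 h (adjusted p = 8.56e-08). The level fell over time in both channels between 6 h and 24 h, by 0.94 in cells alone and 1.33 in co-culture on the log2 scale, beside 5.56% and 3.56% of all genes called lower there. All arrays of a time shared 1 slide, so time and slide cannot be told apart in this fall.

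The promoters of 22 members were matched in RefSeq (GRCm38.p6), and 4 of them are shown because their genes gave the most unlike readings: Clec4d (higher in co-culture at all times), Ctss and Fcer1g (higher at 6 h and 48 h) and Laptm5 (at background throughout). Each runs 5′ to 3′ on the gene's strand from 250 bases before the annotated start to 30 bases after it. Capitals mark the letters GAGGAAG, the core to which PU.1 binds, or their reverse complement.
Clec4d, chr6:123261857-123262136, + strand: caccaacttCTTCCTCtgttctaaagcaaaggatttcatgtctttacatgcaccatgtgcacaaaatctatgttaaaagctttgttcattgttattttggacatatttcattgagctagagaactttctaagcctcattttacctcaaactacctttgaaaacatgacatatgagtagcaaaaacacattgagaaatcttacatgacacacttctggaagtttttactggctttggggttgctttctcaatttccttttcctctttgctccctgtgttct
Ctss, chr3:95526536-95526815, + strand: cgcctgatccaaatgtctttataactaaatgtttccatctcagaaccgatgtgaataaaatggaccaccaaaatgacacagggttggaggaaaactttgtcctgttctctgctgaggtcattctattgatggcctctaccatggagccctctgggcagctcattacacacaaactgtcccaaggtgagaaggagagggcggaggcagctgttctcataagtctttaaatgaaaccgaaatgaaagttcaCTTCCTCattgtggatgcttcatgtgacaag
Fcer1g, chr1:171234320-171234599, - strand: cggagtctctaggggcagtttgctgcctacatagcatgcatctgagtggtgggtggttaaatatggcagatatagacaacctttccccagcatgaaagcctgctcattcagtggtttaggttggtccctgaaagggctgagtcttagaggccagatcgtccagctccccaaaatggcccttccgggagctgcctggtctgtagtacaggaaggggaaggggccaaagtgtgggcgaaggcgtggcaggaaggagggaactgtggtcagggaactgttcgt
Laptm5, chr4:130913066-130913345, + strand: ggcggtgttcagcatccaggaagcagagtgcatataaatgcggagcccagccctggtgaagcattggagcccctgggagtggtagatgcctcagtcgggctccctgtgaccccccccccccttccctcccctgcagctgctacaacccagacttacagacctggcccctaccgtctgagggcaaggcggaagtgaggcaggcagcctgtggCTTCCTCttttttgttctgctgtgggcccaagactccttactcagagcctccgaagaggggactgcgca
The PU.1 letters began at base -241 from the start in Clec4d, -1 in Ctss and -39 in Laptm5, and did not occur in the Fcer1g window. Searched on both strands of the 300 bases, they were in 6 of 22 member promoters (27.3%: C1qc, Cd53, Clec4d, Ctss, Itgam and Laptm5), beside 13.5% of 27025 promoters. The 6 thus include 2 genes at background in these cells and 1 called lower. The ETS-IRF composite was in 2 members (Cd68 and Cybb) against 2.79% of promoters, the AP-1 letters TGANTCA in 3 against 7.93%, the C/EBP letters TTGCNNAA in 2 against 10.8%, and the NF-kB core in 0 against 1.62%. These matches describe the letters of the windows only.

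Among the adaptor chains, Fcer1g and Tyrobp were higher in co-culture at 6 h. Fcer1g, the common gamma chain of Fc receptors, had log2 ratios of 0.83, 0.68, 0.69 and 0.46 (NT, S, C and CS) at 6 h, 0.33, 0.35, 0.15 and 0.29 at 24 h, and 1.12, 1.23, 0.25 and 0.69 at 48 h. All 12 arrays lay above 0, and at 48 h the NT and S arrays were the highest of the series while the C array was among the lowest. The fit gave 0.66 ± 0.10 at 6 h (adjusted p = 0.000305), 0.28 ± 0.10 at 24 h (adjusted p = 0.037, under the fold threshold) and 0.82 ± 0.10 at 48 h (adjusted p = 1.69e-05). The 6 h call was lost without the C array at 6 h (0.54) and where spots with a high local background were kept (0.51), and without the NT and S arrays at 48 h the 48 h value was 0.55 and no longer called.

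Tyrobp encodes the partner chain DAP12. Its log2 ratios were 0.76, 0.68, 0.63 and 0.66 at 6 h, 0.019, 0.14, 0.35 and 0.18 at 24 h, and 0.78, 0.80, -0.0036 and 0.30 at 48 h. The 6 h arrays thus lay close together, while at 48 h the cortisol-free and cortisol arrays did not overlap. The probe was not well above background on any array in cells alone, so the 6 h and 48 h ratios are set against background. At 24 h it was not well above background in co-culture either, so the 24 h ratios are no measure of a change. Each array's reference was its dimmest signal well above background, or the probe's own signal in cells alone where that was higher. Against this reference the co-culture level was 1.45-fold higher at 6 h and 1.33-fold higher at 48 h. Brighter probes can still miss the flag, such as Adgre1 in cells alone at 6 h (mean 6.785), so these folds are not strict lower limits. The fit, with cells alone at background, gave 0.68 at 6 h (adjusted p = 0.00045) and 0.47 at 48 h (adjusted p = 0.00227). The Tyrobp means in co-culture were 7.06 and 7.03 on the log2 scale, against measured means of 6.38 and 6.56 in cells alone. Where spots with a high local background were kept, the fitted 6 h value was 0.51 and no longer called. Without 1 array at a time the fitted 48 h value ran from 0.35 to 0.65, and it was called without the C array at 48 h (0.65, adjusted p = 0.000258).

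Genes that share these chains or signal like them were taken from a list of 17, of which 11 were tested and 3 are members. Of the 11, 5 were higher at 6 h, 2 at 24 h and 3 at 48 h, beside 4.4%, 4.68% and 14.6% of all genes. These counts include the members Clec4d, Fcer1g and Tyrobp at 6 h, Clec4d at 24 h, and Clec4d and Fcer1g at 48 h. The only other genes called were Clec4e at each time and Trem1 at 6 h. At any time 0 were lower, beside 5.27%, 3.7% and 16.8%. Clec4e (Mincle), the lectin receptor encoded beside Clec4d, was at 2.12 ± 0.17, 1.92 ± 0.17 and 2.22 ± 0.17 at 6, 24 and 48 h (adjusted p = 1.51e-05, 1.48e-05 and 3.88e-07). Trem1, an amplifier of inflammatory signalling that uses the Tyrobp chain, was called at 6 h only (0.79 ± 0.12, adjusted p = 0.000461, on 11 arrays).

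Csf1r, the receptor tyrosine kinase through which macrophages survive, was well above background in cells alone and higher in co-culture at 48 h. Its log2 ratios were 0.66, 0.50, 0.43 and 0.33 at 6 h, 0.30, 0.91, 0.83 and 0.18 at 24 h, and 1.16, 1.32, 0.83 and 1.14 at 48 h. All 12 arrays were above 0, and the 4 arrays at 48 h exceeded the 4 at 6 h. The fit gave 0.48 ± 0.11 and 0.56 ± 0.11 at 6 h and 24 h, under the fold threshold, and 1.11 ± 0.11 at 48 h (adjusted p = 2.62e-06). The 24 h value ran from 0.41 to 0.68 without 1 array at a time, and it passed the threshold without the NT array (0.68) or the CS array (0.66) at 24 h, without the 3 arrays of doubtful label (0.62, adjusted p = 0.0419), and with array weights (0.66), scaling between arrays (0.59) or median centring (0.85). The 3 probes for Csf1r differed: the brightest one gave these values, while the others gave mean ratios of 0.29 and -0.06 at 48 h. Of 6 genes of the CSF1 axis, 5 were tested, of which Csf1r was higher at 48 h and Mitf, a transcription factor downstream of the receptor in osteoclasts, was lower (-0.63 ± 0.06, adjusted p = 1.33e-06). Among all genes, 14.6% were called higher and 16.8% lower at 48 h.

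Ctss, a cathepsin that works in antigen presentation, showed the widest spread of any member. In cells alone its log2 level stayed between 6.98 and 7.64 on all 12 arrays. In co-culture the level was 8.25, 7.65, 7.91 and 7.63 at 6 h (NT, S, C and CS), 7.16, 7.33, 7.11 and 7.20 at 24 h, and 10.05, 9.88, 7.50 and 8.16 at 48 h. The 2 cortisol-free arrays at 48 h were thus the highest, the 24 h levels lay within the range of cells alone, and the 6 h levels lay between. The log2 ratio was 0.77 ± 0.24 at 6 h (adjusted p = 0.0181), 0.019 ± 0.24 at 24 h (adjusted p = 0.956) and 1.53 ± 0.24 at 48 h (adjusted p = 0.000122). The 6 h call was lost in turn without the NT, the C or the CS array at 6 h (0.77, 0.60 and 0.76) and where spots with a high local background were kept (0.62, adjusted p = 0.0829). Without the NT and S arrays at 48 h the 48 h ratio was 0.70 and still called (adjusted p = 0.0137).

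Of 15 cathepsins and cystatins tested, 2 were higher at 6 h, 1 at 24 h and 4 at 48 h, beside 4.4%, 4.68% and 14.6% of all genes. The member Ctss is counted among those at 6 h and 48 h. At 48 h 3 were lower, beside 16.8%. The inhibitor Stfa1, a stefin A gene, stood at 2.09 ± 0.20 at 48 h (adjusted p = 2.12e-06), and the aminopeptidase Ctsh at 1.43 ± 0.08 (adjusted p = 4.61e-08). On the lower side at 48 h were Ctsc, which activates granule proteases (-1.27 ± 0.07, adjusted p = 7.37e-08), and the inhibitor Cstb (-0.92 ± 0.06, adjusted p = 8.02e-08). The stefin A genes are close copies whose probes may not separate them.

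Mpeg1, the perforin-2 gene, was bright in cells alone and was called at 6 h only. Its log2 ratios at 6 h were 0.45, 0.73, 0.70 and 0.66 on the NT, S, C and CS arrays, all above 0 (0.64 ± 0.12, adjusted p = 0.00113), and without the CS array the value was 0.55 and no longer called. At 24 h they were -0.0006, 0.80, 0.30 and -0.46, with a fit of 0.16 ± 0.12 (adjusted p = 0.289). At 48 h they were -0.0076, 0.34, 0.29 and 0.37, with a fit of 0.25 ± 0.12 (adjusted p = 0.0804). The 24 h arrays at both ends are among those whose hormone label was not followed in cells alone. Its second probe was at background and gave no call.

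The ratios of the lysozymes were called at no time. Lyz1 was well above background on all 12 arrays in both channels and had log2 ratios of -0.15 ± 0.06, -0.29 ± 0.06 and 0.04 ± 0.06 at 6, 24 and 48 h, under the fold threshold at each time. Lyz2, the form that macrophages make in abundance, was well above background on 7 arrays in cells alone and 8 in co-culture, with log2 ratios of -0.15 ± 0.08, -0.017 ± 0.08 and -0.19 ± 0.08. Over all arrays the ratios of Lyz1 lay between -0.49 and 0.22 and those of Lyz2 between -0.51 and 0.21. With the processed signals Lyz2 was called lower at 48 h (-0.76, adjusted p = 0.0143). Levels of Lyz1 within each channel are given with the other levels over time. The genes are near-identical copies, and signal from one at the probe of the other cannot be told apart here.

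Of the integrin chains, Itgam (CD11b) was higher in co-culture at 48 h and its partner Itgb2 (CD18) was not. Itgam had log2 ratios of 0.10, 0.21, 0.30 and 0.20 at 6 h (NT, S, C and CS), 0.23, 0.16, 0.21 and 0.25 at 24 h, and 0.70, 0.83, 0.74 and 0.85 at 48 h. All 4 values at 48 h were above the 8 earlier ones. The fit gave 0.20 ± 0.05 at 6 h, 0.21 ± 0.05 at 24 h and 0.78 ± 0.05 at 48 h (adjusted p = 1.59e-07). Only 1 of its 3 probes was detected throughout, and the others, at background, gave mean ratios of 0.09 and 0.006 at 48 h. Itgb2 had 0.39 ± 0.07 at 6 h (adjusted p = 0.00069) and 0.26 ± 0.07 at 24 h (adjusted p = 0.00805), under the fold threshold, and -0.16 ± 0.07 at 48 h (adjusted p = 0.0558). A list of these integrins and their partners held 5 tested genes, among them Itgam and Itgb2. Of the partners only Icam2, a ligand on endothelium and leukocytes, was called. It was higher at 6 h (0.65 ± 0.18, adjusted p = 0.0097) and 48 h (1.28 ± 0.18, adjusted p = 4.44e-05). Among all genes, 4.4% and 14.6% were called higher at these times.

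The actin and cytoskeletal members differed among themselves. Aif1 (IBA1), a calcium-binding actin bundler widely used to stain macrophages, was well above background in cells alone and had log2 ratios of 0.59, 0.78, 0.71 and 0.76 at 6 h, 0.49, 0.92, 0.65 and 0.41 at 24 h, and 1.00, 0.73, 0.54 and 0.68 at 48 h. All 12 arrays were above 0 and the 3 times overlapped. The fit gave 0.71 ± 0.09, 0.62 ± 0.09 and 0.74 ± 0.09 (adjusted p = 8.44e-05, 0.000204 and 1.23e-05). The 24 h value was under the fold threshold without the S array or the C array at 24 h, and at 0.57 without the 3 arrays of doubtful hormone label.

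Plek (pleckstrin), a protein kinase C substrate of platelets and leukocytes, was higher from 24 h on. Its log2 ratios were 0.52, -0.014, -0.14 and -0.0022 at 6 h, 0.88, 0.58, 0.61 and 0.71 at 24 h, and 0.61, 1.05, 0.30 and 0.58 at 48 h. Only the NT array stood above the others at 6 h, and all 4 arrays at 24 h exceeded all 4 at 6 h. The fit gave 0.09 ± 0.10 at 6 h (adjusted p = 0.453), 0.70 ± 0.10 at 24 h (adjusted p = 0.000211) and 0.63 ± 0.10 at 48 h (adjusted p = 0.000111). Without the S array at 48 h the 48 h value was 0.46 and no longer called.

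Arhgdib, which is bright in these cells, was lower in co-culture at 48 h. Its log2 ratios were -0.27, -0.15, -0.24 and -0.17 at 6 h (NT, S, C and CS), -0.08, -0.23, -0.25 and -0.29 at 24 h, and -0.89, -0.59, -0.53 and -0.47 at 48 h. All 4 values at 48 h were below the 8 earlier ones. The fit gave -0.21 ± 0.07 at 6 h and 24 h and -0.62 ± 0.07 at 48 h (adjusted p = 8.26e-06), just past the fold threshold, and without the NT array at 48 h it was -0.52 and no longer called. Its second probe gave a mean of -0.20 at 48 h. Coro1a and Lcp1, which bind and bundle actin in leukocytes, were called at no time, with fits between -0.09 and 0.28, and the dimmer probe of Lcp1 read 0.56 at 48 h where the brightest read -0.03. With the processed signals Coro1a was called higher at 6 h (0.66, adjusted p = 0.00907).

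The remaining surface members include the tetraspanin Cd53, which was called lower at 48 h. Its log2 ratios were 0.19, 0.58, 0.30 and 0.29 at 6 h, 0.07, 0.36, 0.28 and -0.19 at 24 h, and -1.09, -0.80, -0.46 and -0.38 at 48 h. The 4 arrays at 48 h lay under all 8 earlier ones. The fit gave 0.34 ± 0.10 at 6 h, 0.13 ± 0.10 at 24 h and -0.68 ± 0.10 at 48 h (adjusted p = 9.48e-05). The 48 h call was lost without the NT array (-0.58) or the S array (-0.56) at 48 h, and without both the value was -0.36. Cd48, an adhesion molecule of the CD2 family, had -0.47 ± 0.10 at 48 h (adjusted p = 0.00117), under the fold threshold, with 0.01 ± 0.10 and 0.08 ± 0.10 earlier. Its 48 h value ran from -0.60 to -0.32 without 1 array at a time and was called without the NT array at 48 h (-0.60), without NT and S at 48 h (-0.78), with an offset of 16 (-0.63), with median centring (-0.66) and with the processed signals (-0.85). Its second probe gave a mean of -0.63 at 48 h. Cybb had 0.25 ± 0.06, 0.10 ± 0.06 and -0.20 ± 0.06 at 6, 24 and 48 h, under the fold threshold. With the processed signals it was called at each time (0.76, 0.75 and -1.22, with adjusted p = 6.93e-05 at 48 h). Its probe was, however, well above background on 0 arrays in either channel at 48 h, and on 0 in cells alone at 24 h. The 48 h values thus compare signals at background and are no measure of a change. Adgre1 had -0.14 ± 0.06, -0.11 ± 0.06 and -0.02 ± 0.06, and at 6 h and 48 h it was well above background on 0 arrays in either channel.

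**Figure D3:**
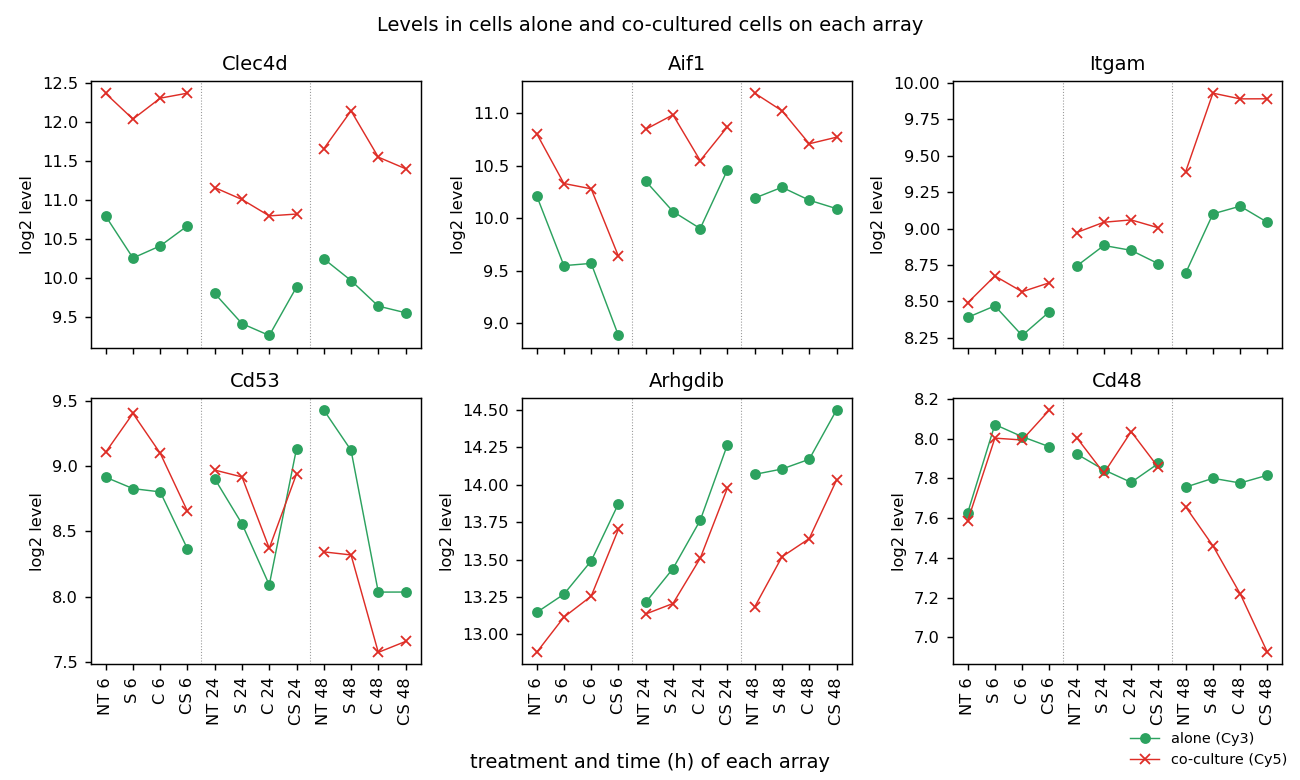
Log2 level (y axis, each panel with its own range) of 6 members on each of the 12 arrays (x axis: treatment, then hours), in cells alone (green circles) and in co-cultured cells (red crosses), with lines joining the arrays of 1 time. Clec4d and Aif1 are apart at all times, Itgam parts at 48 h, and the co-culture levels of Cd53 and Arhgdib run under cells alone on all 4 arrays at 48 h.

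Of 11 genes of the NADPH oxidases 6 were tested, among them the member Cybb, while the member Ncf1 was at background and not tested. Ncf4, a cytosolic subunit, was higher at 6, 24 and 48 h (0.95 ± 0.17, 1.14 ± 0.17 and 1.29 ± 0.17, with adjusted p = 0.000815, 0.000295 and 3.07e-05). Cyba, the membrane partner of Cybb and of other NOX enzymes, was higher at 6 h (1.06 ± 0.19, adjusted p = 0.000852) and 48 h (1.03 ± 0.19, adjusted p = 0.00044). Nox4, the oxidase typical of fibroblasts, was lower at 6 h (-0.84 ± 0.08, adjusted p = 3.28e-05) and 48 h (-1.04 ± 0.08, adjusted p = 5.51e-07).

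The C1q chains were at background, and of 9 genes of the classical complement pathway 6 were tested. The protease C1s1 (0.66 ± 0.09 at 6 h, adjusted p = 0.000197) and its inhibitor Serping1 (0.70 ± 0.13 at 6 h, adjusted p = 0.00108) were higher at 6 h and 24 h, and none was called at 48 h. Msr1 was at background too, and of 13 scavenger receptors 11 were tested, with 2 higher at each time and 2 lower at 48 h. Among all genes, 4.4%, 4.68% and 14.6% were called higher at 6, 24 and 48 h, and 16.8% lower at 48 h. Olr1, a receptor for oxidised LDL, had 1.18 ± 0.11, 0.97 ± 0.11 and 1.69 ± 0.11 (adjusted p = 2.9e-05, 6.97e-05 and 1.54e-07), while Scara5, a ferritin receptor of stromal cells, had -1.26 ± 0.09 at 48 h (adjusted p = 3.61e-07).

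A further 48 blood cell genes that are not members were read in the same way, of which 32 were tested. Of these, 6 were higher at 6 h, 5 at 24 h and 9 at 48 h, beside 4.4%, 4.68% and 14.6% of all genes. At each time 0 were lower, beside 5.27%, 3.7% and 16.8%. Genes could pass the filter through the co-culture channel alone. Of the 48, 11 led by 3 arrays or more in co-culture and 0 in cells alone, beside 5.51% and 0.78% of all named genes. These counts are therefore a description, and detection in cells alone is not given for the genes named next. Mrc1, the mannose receptor, had 1.49 ± 0.09, 2.01 ± 0.09 and 0.84 ± 0.09 (adjusted p = 6.89e-06, 3.54e-06 and 8.1e-06). Cyth4, an ARF exchange factor of blood cells, reached 1.79 ± 0.11 (adjusted p = 1.19e-07), and the inhibitory receptor Lilrb4a 1.77 ± 0.12 (adjusted p = 1.72e-07), at 48 h. Runx1, a transcription factor of blood cell formation, had 1.39 ± 0.09 (adjusted p = 1.62e-07) and the inhibitory receptor Cd300a 1.22 ± 0.06 (adjusted p = 2.05e-08) at 48 h. None of 7 tested lymphocyte genes was called at any time, and of 4 tested hepatocyte genes the haem-binding Hpx was called at 6 h (0.87 ± 0.07, adjusted p = 1.53e-05) and 24 h (1.15 ± 0.07, adjusted p = 3.76e-06). Of 20 fibroblast genes, 2 were higher and 1 lower at 6 h, 2 and 2 at 24 h, and 3 and 5 at 48 h, beside the same shares of all genes.

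The members did not keep the same ratio from one time to the next. Between 24 h and 6 h, Plek was called higher (0.60 ± 0.14, adjusted p = 0.0247), beside 1.71% of all genes called higher and 0.672% lower. Between 48 h and 24 h, Ctss was higher (1.51 ± 0.34, adjusted p = 0.00301) and Cd53 lower (-0.81 ± 0.15, adjusted p = 0.000768), beside 9.38% and 11.7%. Between 48 h and 6 h, Csf1r was higher (0.63 ± 0.15, adjusted p = 0.00433) and Cd53 lower (-1.02 ± 0.15, adjusted p = 0.000139), beside 12% and 12.3%. All arrays of a time shared 1 slide, so time and slide cannot be told apart in these differences. Without the 3 arrays of doubtful label, Plek (0.61, adjusted p = 0.158) and Csf1r (0.57) were no longer called, and Cd48 was called lower between 48 h and 24 h (-0.63, adjusted p = 0.0467). The Plek difference was also lost without any 1 of S, C or CS at 6 h or C or CS at 24 h (0.52 to 0.60), and with the processed signals or scaling between arrays (both 0.58). The Csf1r difference was 0.087 with median centring (adjusted p = 0.721), 0.45 with scaling between arrays and 0.40 with the mean of all probes, and it was lost without S at 6 h (0.54) or CS at 48 h (0.53). Without NT and S at 48 h, Cd53 had -0.48 between 48 h and 24 h and was no longer called.

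Levels over time were then read within each channel, where time and slide cannot be told apart either. In cells alone, 5 members were called between 48 h and 6 h: Aif1 (0.63), Arhgdib (0.77), Itgam (0.61) and Lyz1 (0.62) were higher and Clec4d was lower (-0.68), beside 6.57% and 7.29% of all genes. In co-culture, 7 members were called: Aif1 (0.66), Ctss (1.04), Itgam (1.19), Lyz1 (0.81) and Plek (0.75) were higher, and Cd48 (-0.62) and Cd53 (-1.09) lower, beside 13% and 15.6%. Aif1, Itgam and Lyz1 were thus called higher in both channels, while Cd53 was called in co-culture, as was the difference in its ratio (-1.02). Between 24 h and 6 h, Aif1 (0.64) and Mpeg1 (0.71) were higher in cells alone, beside 5.63% of all genes, and 0 members were called higher in co-culture, beside 5.34%, with 4 at an unadjusted p under 0.05. Between 48 h and 24 h, 7 members were called in co-culture: Clec4d (0.74), Csf1r (0.95), Ctss (1.70) and Itgam (0.76) were higher and Cd48 (-0.62), Cd53 (-0.83) and Itgb2 (-0.63) lower, beside 10.5% and 16.6% of all genes. In cells alone 0 members were called there, beside 2.63% and 1.91%, with 4 higher and 2 lower at an unadjusted p under 0.05. Leaving out single arrays ended the call between 48 h and 6 h for Aif1 in 8 and Lyz1 in 7 of 12 cases in cells alone, and for Ctss in 8 and Lyz1 in 4 of 12 cases in co-culture. Between 24 h and 6 h in cells alone, it ended the call of Aif1 in 10 (0.39 to 0.83) and of Mpeg1 in 5 (0.46 to 0.89) of 12 cases. Without the 3 arrays of doubtful label, the calls that ended were those of Aif1 (0.39) and Mpeg1 (0.56) between 24 h and 6 h and of Aif1 (0.60) and Lyz1 (0.48) between 48 h and 6 h in cells alone. In co-culture they were those of Ctss (0.64), Lyz1 (0.61), Plek (0.57) and Cd48 (-0.64) between 48 h and 6 h and of Cd48 (-0.73) between 48 h and 24 h, while Clec4d was called lower between 48 h and 6 h (-0.81, adjusted p = 0.00152). Without NT and S at 48 h, the calls between 48 h and 6 h ended in co-culture for Ctss (0.037), Lyz1 (0.30) and Plek (0.49). In cells alone they ended for Aif1 (0.75) and Lyz1 (0.26). These values are log2 differences in level.

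Hormones were compared next, in the ratio and in each channel. In the ratio, 0 members were called for S, C or CS against NT, where limma called 0% of all genes in either direction, and 0 for cortisol-containing against cortisol-free arrays, where it called 0.0217% higher and 0% lower. At an unadjusted p under 0.05, 2 members were higher for S, 3 lower for C, 1 lower for CS and 4 lower for cortisol. In co-cultured cells, Csf1r was lower with cortisol on the 6 arrays against the 6 without (-0.63 ± 0.09, adjusted p = 0.00241), beside 0.947% of all genes called lower and 1.63% higher. Its log2 level in co-culture was 10.51 and 10.23 (NT and S) against 9.88 and 9.74 (C and CS) at 6 h, 9.96 and 9.81 against 9.39 and 9.50 at 24 h, and 11.10 and 11.03 against 10.19 and 10.16 at 48 h. The cortisol arrays were the lower ones at each time, without overlap. The call was lost without the S array at 48 h (-0.57), without NT and S at 48 h (-0.50), with median centring (-0.58), with array weights (-0.57) and with the mean of all probes (-0.42), and kept without the 3 arrays of doubtful label (-0.78, adjusted p = 0.0404). In cells alone the same difference was -0.45 ± 0.14 (adjusted p = 0.126), and -0.63 ± 0.16 (adjusted p = 0.13) without the 3 arrays.

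Single hormone conditions gave few other calls. Against NT in co-culture, 2 members were lower with C, Csf1r (-0.70 ± 0.12, adjusted p = 0.0212) and Mpeg1 (-0.63 ± 0.14, adjusted p = 0.0456), beside 0.875% of all genes called lower and 1.05% higher. With CS, Csf1r was lower (-0.72 ± 0.12, adjusted p = 0.0117) and Arhgdib higher (0.84 ± 0.08, adjusted p = 0.0014), beside 0.882% and 2.72%. Arhgdib was also higher with CS in cells alone (0.74 ± 0.12, adjusted p = 0.02), beside 1.14% of all genes called higher and 0.217% lower. With C against NT in cells alone 0 members were called, beside 0.145% and 0.0434%, with 2 higher and 5 lower at an unadjusted p under 0.05. S gave 0 calls in either channel among members and among all genes, with 2 members higher in co-culture and 1 lower in cells alone at an unadjusted p under 0.05. Without the 3 arrays of doubtful label, none of these single-hormone calls passed. The values were then -0.70 for C and -0.82 for CS in Csf1r, -0.63 for C in Mpeg1 and 0.83 for CS in Arhgdib in co-culture, and 0.63 for Arhgdib in cells alone, with adjusted p from 0.0613 to 0.135. Leaving out single arrays ended the C call of Mpeg1 in 9 and that of Csf1r in 5 of 12 cases.

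Because the 48 h arrays of Ctss, Fcer1g and Tyrobp parted by cortisol, a fit with a separate cortisol term at each time was added after the data had been seen, and its values are a description of that pattern. In co-culture at 48 h, 4 members were lower with cortisol, beside 1.21% of all genes called lower and 0.918% higher. They were Ctss (-2.14 ± 0.25, adjusted p = 0.00355), Csf1r (-0.89 ± 0.12, adjusted p = 0.00709), Plek (-0.75 ± 0.14, adjusted p = 0.0288) and Mpeg1 (-0.71 ± 0.13, adjusted p = 0.0299). Fcer1g (-0.80 ± 0.19, adjusted p = 0.0654) and Tyrobp (-0.54 ± 0.17, adjusted p = 0.155) did not pass. In co-culture at 24 h only Mpeg1 passed (-0.71 ± 0.13, adjusted p = 0.0321), beside 0.869% of all genes, and at 6 h 0 members did, beside 0.355% lower and 1.08% higher, with 3 members lower and 1 higher at an unadjusted p under 0.05.

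The difference in the cortisol response between 48 h and 6 h in co-culture was itself tested and passed for 0 members, beside 0% of all genes lower and 0.0651% higher, with Ctss at -1.96 ± 0.35 (adjusted p = 0.173) and 8 members lower at an unadjusted p under 0.05. In the ratio at 48 h, Ctss had -1.76 ± 0.25 (adjusted p = 0.169), and 0 members and 0% of all genes were called, with 5 members lower and 1 higher at an unadjusted p under 0.05. In cells alone at 48 h 0 members were called, beside 0.00723% of all genes lower and 0% higher, with 3 lower at an unadjusted p under 0.05. Each side of these comparisons holds 2 arrays at 48 h. Without the 3 arrays of doubtful label only Ctss was called there in co-culture (-2.14, adjusted p = 0.0453). Csf1r (-0.89), Plek (-0.75) and Mpeg1 (-0.71) kept their values, with adjusted p from 0.0829 to 0.113. In cells alone, Cd53 (-1.24, adjusted p = 0.0242) and Mpeg1 (-0.87, adjusted p = 0.0241) were then called lower with cortisol at 48 h. Leaving out single arrays ended the call of Plek in 6, of Mpeg1 in 4 and of Csf1r in 1 of 12 cases, and that of Ctss in 0 (-2.55 to -1.73).

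**Figure D4:**
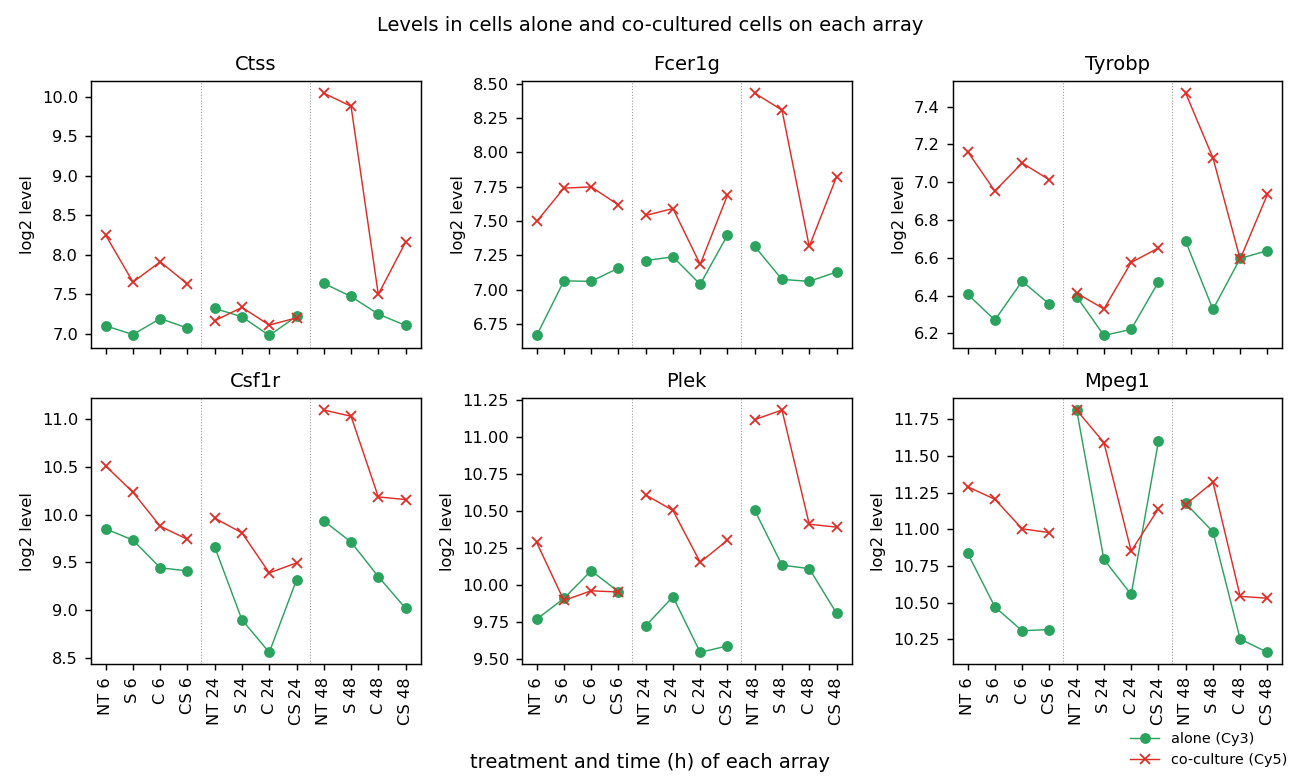
Log2 level (y axis, each panel with its own range) of 6 members on each of the 12 arrays (x axis: treatment, then hours), in cells alone (green circles) and in co-cultured cells (red crosses), with lines joining the arrays of 1 time. At 48 h the co-culture levels of Ctss, Fcer1g, Tyrobp, Csf1r, Plek and Mpeg1 are higher on the NT and S arrays than on the C and CS arrays, most widely for Ctss (10.05 and 9.88 against 7.50 and 8.16).

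Over the 12 arrays, the co-culture level of Ctss ran most closely with that of Csf1r (Pearson's r = 0.913), Fcer1g (r = 0.886) and Tyrobp (r = 0.798) among the called members, and in cells alone these values were 0.505, 0.413 and 0.466. Tyrobp was well above background on only 6 arrays in co-culture and on 0 in cells alone, so its values draw on background signal. Cd53 ran opposite to Itgam in co-culture (r = -0.862). These correlations describe 12 arrays that share times, slides and treatments, and carry no test. The 10 members at background, among them Spi1, Ptprc and Laptm5, gave no level to set beside them, and at 48 h, when Ctss was highest, none of the 10 was well above background on any array.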

How the data were processed

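RNA of 12 pairs of 3T3L-1 cultures was measured on 12 two-colour Agilent arrays. Per the labels, the authors extracted total RNA, labelled co-cultured cells with Cy5 and cells alone with Cy3, without a dye swap, and read the spots with Agilent Feature Extraction (the file headers name release 10.7.3.1 and the submitters' processing notes 10.5.1.1). Linear intensity values of spots and local backgrounds were deposited, with processed intensity values, a log10 ratio of Cy5 over Cy3, and spot flags. These deposited flags are scores of 0 or 1 given by the scanner software. The deposited table of the whole series held the same log10 ratio, equal within 1% on all 12 arrays for 100% of 43020 spots, with a median of 0.

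Median intensity values were corrected by normexp (offset 50) and normalized by loess within arrays, with control spots at weight 0, in limma 3.58.1 under R 4.3.3 (statmod, version 1.5.0). A local background above 5 times the array median was set to the median, and that spot was dropped. Single channels were scaled further by Aquantile. Of 39429 probes 27508 were named through the RefSeq table of GRCm38.p6, with each gene represented by its brightest probe. The filter kept 23032 probes and 13837 genes. The fits had terms for time and treatment and 6 residual degrees of freedom (5 with cortisol at each time), and lmFit and eBayes with a trend gave adjusted p-values. The steps were tested on simulated data. Figures were drawn with matplotlib 3.10.9 under Python 3.11.15. The number of arrays limits the precision.

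The members, gene lists and comparisons were chosen with earlier results of these data known. All 30 members were accounted for, values on every array were given for those called at any time, and other genes were named only from the lists, at most 5 called genes each, with the largest change first. The lists were other blood cell genes, Fc gamma chain partners, NADPH oxidases, the CSF1 axis, cathepsins and cystatins, classical complement, integrin partners, scavenger receptors, actin genes, and fibroblast, lymphocyte, hepatocyte and glucocorticoid-induced genes. Alternatives covered normalization, background, filters, probes, thresholds, array weights and leaving out arrays.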

Additional observations from a re-analysis of the deposited data

Results flagged for a closer look

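For 4 members, the log2 ratio of co-culture over alone differed between times by limma's test of the difference itself, on 12 arrays with 1 slide per time. Plek was 0.60 higher at 24 h than at 6 h (adjusted p = 0.0247). Ctss was 1.51 higher at 48 h than at 24 h (adjusted p = 0.00301). Cd53 differed by -0.81 between 48 h and 24 h (adjusted p = 0.000768) and by -1.02 between 48 h and 6 h (adjusted p = 0.000139). Without NT and S at 48 h the first of these was -0.48 and no longer called. Csf1r was 0.63 higher at 48 h than at 6 h (adjusted p = 0.00433), but the value was 0.087 with median centring (adjusted p = 0.721) and 0.40 with the mean of all probes, and neither was called. The Plek difference was lost without the 3 arrays of doubtful label (0.61, adjusted p = 0.158). Slide and time cannot be told apart in these differences.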

How the results depend on the processing

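No called value reversed under any alternative. The counts of members called are given in order for higher at 6, 24 and 48 h, lower at 48 h, 24 h against 6 h, 48 h against 24 h, 48 h against 6 h, and for 48 h against 6 h in cells alone and in co-culture, and for cortisol in co-culture over all times and at 48 h. The reported counts were 6, 3, 7, 2, 1, 2, 2, 5, 7, 1 and 4. Without 1 array at a time they ranged over 4 to 6, 2 to 4, 6 to 8, 1 to 2, 0 to 2, 2 to 5, 1 to 6, 2 to 5, 4 to 7, 0 to 2 and 1 to 4. With a fold threshold of 2 they were 1, 1, 3, 0, 0, 1, 1, 0, 3, 0 and 1. With no fold threshold, 12 were higher at 6 h and 7 at 24 h, beside 24.3% and 25.8% of all genes, 4 were lower at 48 h, beside 38.1%, 11 differed between 48 h and 24 h, 8 between 48 h and 6 h and 14 in co-culture, and 5 for cortisol over all times.

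With median centring, 4 were higher at 48 h, 2 differed between 24 h and 6 h, 8 between 48 h and 24 h, 5 between 48 h and 6 h, and 2 with cortisol at 48 h. With the processed signals, 4 were lower at 48 h, among them Cybb, which was at background there. The differences between times then numbered 0, 9 and 6, with 11 in co-culture. The deposited log10 ratio also gave 4, 0, 9 and 6. Scaling between arrays gave 1 lower at 48 h, 0 between 24 h and 6 h and 1 between 48 h and 6 h. An offset of 16 gave 6 between 48 h and 24 h and 7 between 48 h and 6 h. With high local backgrounds kept, 3 were higher at 6 h and 3 differed in cells alone, and with no filter 3 did. The mean of all probes gave 1 lower at 48 h, 1 between 48 h and 6 h and 0 for cortisol, and array weights gave 1 lower at 48 h. Without the 3 arrays of doubtful label, 0 differed between 24 h and 6 h, 1 between 48 h and 6 h, 3 in cells alone, 4 in co-culture and 1 with cortisol at 48 h. Without NT and S at 48 h, which was chosen after seeing the data, as was the cortisol term at each time, 1 was lower at 48 h, 2 differed between 24 h and 6 h and 0 for cortisol. Tyrobp at 48 h, at 0.47 in the report, was called with the processed signals (1.86), with an offset of 16 (0.70) and without C at 48 h (0.65). The causes were not tested.

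Mean spot signals (only medians were used here) and a slide block (each slide held 1 time) were not run. Each ratio pairs co-cultured cells and cells alone on 1 array. No paired analysis was possible across arrays, with replicates as a block, because each condition had 1 array and the labels give no replicate numbers. Dim probes left 10 members on 2 arrays or fewer in both channels, with no measure of their ratio. Tyrobp was at background in cells alone throughout, and in both channels at 24 h. Cybb was at background in cells alone at 24 h and in both channels at 48 h. The same held for Adgre1 in both channels at 6 h and 48 h.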
